A study of Mus musculus with 26 samples.

Results

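The axonemal dynein, radial spoke, Drc and Cfap genes, which encode the motor and scaffold of the sperm tail, were examined in testes of mice with mutations of Nkapl or Sox30. They were taken by symbol, as those beginning with Dnah, Dnaic, Dnal, Dnaaf, Rsph, Drc or Cfap, with the Dnaj chaperone genes left out. The rule found 56 of the 24682 genes counted in the series: 25 Cfap, 12 Dnah, 7 Rsph, 4 Dnaaf, 3 Dnal, 3 Drc and 2 Dnaic genes. All 56 matched a protein-coding GENCODE gene on GRCm38, and they lie on 16 chromosomes.

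The axoneme is the microtubule core of the sperm tail and of motile cilia. Outer and inner dynein arms on its microtubule doublets make the doublets slide, and the radial spokes, the nexin-dynein regulatory complex (N-DRC) and the central apparatus turn sliding into bending. Assembly factors fold the dynein arms in the cytoplasm before they reach the axoneme, and proteins inside the doublets stabilise them. In the testis, sperm tails grow in spermatids, the haploid cells that follow the meiotic spermatocytes, and some subunits come in one form for sperm and another for cilia.

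Testis RNA of C57BL/6 mice aged 21 days was sequenced in 3 sets, each with its own wild type. The Nkapl set had Nkapl knockout (2 libraries) and wild-type testes (3 libraries), the Sox30 set had Sox30 knockout (2) and wild-type testes (3), and the third set had testes homozygous for an Nkapl allele called TGdel (3) and wild-type testes whose titles carry the unexplained mark NE (2). From Nkapl knockout and wild-type mice, also labelled as aged 21 days, round spermatids and pachytene spermatocytes were sorted, with 2 libraries of each of the 4 kinds. The strain of these sorted libraries is not labelled. No label names a second mutation in any group, or the part of Nkapl or Sox30 that was removed.

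The 26 deposited files held 23 distinct libraries, because 1 file in each testis set repeated another. Headings and records disagreed on the sample in 15 of 18 testis files, and libraries were grouped by heading. For 4 libraries (wild type 3 of the Nkapl set, wild type 3 of the Sox30 set, wild type 2 and TGdel 3 of the third set) the record named the other genotype. Total counts ran from 16469667 to 40010106 per library. Values below are CPM, the library-size-scaled counts of edgeR with its normalization factors. A gene was called at a Benjamini-Hochberg adjusted p under 0.05 over all genes tested by edgeR's quasi-likelihood test, and every adjusted p below is from that test unless another tool is named. The ± after a log2 fold change is its SE.

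Nkapl itself, the check of the labels, measured 60.8 and 57.8 CPM in Nkapl knockout testes against 74.9, 79.5 and 79.9 CPM in wild-type testes. In sorted spermatids it measured 24.6 and 23.6 CPM in knockout against 88.4 and 90.3 CPM in wild-type cells. In sorted spermatocytes it ran against the labels, at 126.8 and 124.6 CPM in the libraries labelled knockout and 90.1 and 86.0 CPM in those labelled wild type, so every direction in spermatocytes below rests on labels that this check does not bear out. In the third set Nkapl was not called, at 107.0, 117.7 and 125.7 CPM in TGdel testes against 101.0 and 102.9 CPM in wild-type testes (log2 0.20, adjusted p = 0.328), and since the labels do not say what TGdel removes, this transcript level checks those labels no further. Sox30 measured 44.7 and 61.5 CPM in Sox30 knockout testes against 77.6, 86.2 and 72.4 CPM in wild-type testes, a difference that was not called (log2 -0.57, adjusted p = 0.171).

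The promoters of 4 members are shown first, because Drc3, Dnah6 and Dnaic1 were the members called lower in Nkapl knockout testis, in both sorted cell types by their labels and in TGdel testis (5.36% of the members, against 0.98% of all genes tested in these fits), and Cfap100 was the member that fell in both knockout testes. Each runs from 250 bases before to 50 after the transcript start in RefSeq for GRCm38.p6, written 5′ to 3′ on the gene's strand. Capitals mark a match to GTTGCC (part of the X-box that RFX factors bind) or TGACGTCA (the cAMP response element).
Drc3, chr11:60353130-60353429, plus strand: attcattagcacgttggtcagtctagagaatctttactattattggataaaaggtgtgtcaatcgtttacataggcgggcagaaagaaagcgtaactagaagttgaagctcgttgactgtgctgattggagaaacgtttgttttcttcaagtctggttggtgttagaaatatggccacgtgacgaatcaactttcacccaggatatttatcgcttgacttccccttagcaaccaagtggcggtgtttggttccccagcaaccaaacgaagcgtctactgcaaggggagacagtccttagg
Dnah6, chr6:73221582-73221881, minus strand: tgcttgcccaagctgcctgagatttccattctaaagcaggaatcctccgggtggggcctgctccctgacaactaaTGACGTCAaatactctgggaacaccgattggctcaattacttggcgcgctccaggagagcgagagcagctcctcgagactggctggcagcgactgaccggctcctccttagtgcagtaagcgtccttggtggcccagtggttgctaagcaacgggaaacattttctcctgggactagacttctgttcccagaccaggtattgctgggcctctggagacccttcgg
Dnaic1, chr4:41569544-41569843, plus strand: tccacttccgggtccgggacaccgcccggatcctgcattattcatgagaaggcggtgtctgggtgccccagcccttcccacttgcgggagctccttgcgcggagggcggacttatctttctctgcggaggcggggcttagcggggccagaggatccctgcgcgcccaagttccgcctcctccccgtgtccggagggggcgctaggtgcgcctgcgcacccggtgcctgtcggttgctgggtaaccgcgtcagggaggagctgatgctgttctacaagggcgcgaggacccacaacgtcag
Cfap100, chr6:90428431-90428730, minus strand: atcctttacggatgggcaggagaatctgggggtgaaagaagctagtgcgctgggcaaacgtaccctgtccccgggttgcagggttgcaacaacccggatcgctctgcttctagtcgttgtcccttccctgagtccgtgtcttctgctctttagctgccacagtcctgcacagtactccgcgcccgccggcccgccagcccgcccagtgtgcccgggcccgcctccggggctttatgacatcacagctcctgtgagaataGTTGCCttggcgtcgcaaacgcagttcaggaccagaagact
The TGACGTCA of Dnah6 lies 175 bases upstream of the start, and the GTTGCC of Cfap100 lies 10 bases downstream of it. Neither sequence stood in the windows of Drc3 and Dnaic1. Only exact matches to these letters were sought, so other forms of either site are not marked in any of the windows. In GENCODE on GRCm38, Drc3 spans chromosome 11 from 60353329 to 60394341, Dnah6 chromosome 6 from 73017606 to 73221651, Dnaic1 chromosome 4 from 41569775 to 41638158 and Cfap100 chromosome 6 from 90403479 to 90428797.

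Promoters were found for 47 of the 56 members. On either strand, GTTGCC stood in 16 of the 47 (34.0%), against 12.7% of all 27025 promoters of that length. AACTGNC, a Myb motif, stood in 11 (23.4%, against 12.9% of all), and TGTTTAC, a forkhead motif, stood in 3 (6.38%, against 3.55%). TGACGTCA stood in 1 (2.13%, against 1.88%), and ACAATGG, a Sox motif, stood in 0, against 3.71% of all promoters. These are counts of letters, and no factor's binding was measured.

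The sperm forms of the axoneme genes stood far above the ciliary forms in these testes. Per kilobase of exon, in wild-type testes of the Nkapl set, the outer arm heavy chains Dnah8 and Dnah17, known from sperm, averaged 173.0 and 83.9 CPM, whereas Dnah5, Dnah9 and Dnah11, known from airway cilia, averaged 0.195, 0.453 and 0.117 CPM. The radial spoke head gene Rsph6a, the sperm form, averaged 63.1 CPM per kilobase, and its ciliary relative Rsph4a averaged 0.188 CPM per kilobase. Rsph1, another spoke head gene, was the highest member per kilobase in every group, at 481 CPM here. The median member stood at 28.8 CPM per kilobase. In each of the 5 wild-type groups 4 members averaged under 1 CPM per kilobase.

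In Nkapl knockout testis 48 of the 56 members fell and 0 rose. That is 85.7% of the members, against 26.1% of all 16937 genes tested called lower and 17.8% called higher. The median log2 fold change was -0.46 over the members and 0.01 over all genes tested, and all 56 members passed the filter on low counts. An unadjusted p under 0.05 was found for 49 members, but the share of all genes at that level was not computed. In each of the 48 members, no knockout library reached the lowest wild-type library. The share of all genes with such a gap was not computed, so this count has no background beside it. Round spermatid markers moved with this result: 12 of the 13 tested of 16 listed were lower (median log2 -6.40), and their summed level was 4.90 to 6.18 CPM in knockout against 155 to 231 CPM in wild-type testes. Of the 12 Sertoli cell markers 10 were higher, with sums of 2101 to 2198 CPM in knockout against 1741 to 1800 CPM in wild-type testes. Of the 12 pachytene spermatocyte markers 7 were lower and 2 higher, with sums of 3778 to 3899 CPM in knockout against 4311 to 4389 CPM in wild-type testes. Of the 10 spermatogonia markers 6 were higher and 1 lower, with sums of 542.6 to 545.8 CPM in knockout against 573.4 to 603.5 CPM in wild-type testes. The wild-type sums came mostly from Dmrtb1, at 216 and 210 CPM in knockout against 322, 307 and 308 CPM in wild-type testes. Dmrtb1 stood at 1077 and 1098 CPM in wild-type spermatids, so this sum does not measure spermatogonia alone. The ribosomal RNA gene Rn45s took 5.53% and 5.29% of counts in knockout against 3.96%, 3.97% and 3.97% in wild-type testes. The part of these in the members' values was not tested. In whole testis, fewer cells of a type and less RNA per cell cannot be told apart.

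Among the outer arm heavy chains, 3 of 5 fell in Nkapl knockout testis. Dnah17 measured 809.5 and 807 CPM in knockout against 1257, 1458 and 1345 CPM in wild-type testes (log2 -0.74 ± 0.05, adjusted p = 5.4e-10). Dnah8 measured 3396 and 3397 CPM in knockout against 4273, 4982 and 4662 CPM in wild-type testes (log2 -0.45 ± 0.05, adjusted p = 3.51e-07). Both sperm heavy chains were lower in both knockout libraries, with a wide gap to wild type. The ciliary chain Dnah5 was scarce, at 0.827 and 0.798 CPM in knockout against 3.54, 2.92 and 2.68 CPM in wild-type testes (log2 -1.90 ± 0.26). Dnah9 (log2 -0.17 ± 0.13, adjusted p = 0.341) and Dnah11 (0.52 ± 0.23, adjusted p = 0.0772) did not pass, and Dnah11 was the 1 member with both knockout libraries above all wild-type ones.

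All 7 inner arm heavy chains fell in Nkapl knockout testis, by a median log2 of -0.31. Dnah6 led them, at 203 and 195.6 CPM in knockout against 356, 408 and 384 CPM in wild-type testes (log2 -0.94 ± 0.05, adjusted p = 3.62e-11). Dnah10 had log2 -0.71, Dnah1 -0.31 and Dnah2 -0.24. The copies Dnah7a, Dnah7b and Dnah7c, at -0.14 to -0.31, are near-identical, so their reads may have been split between them and their separate values are uncertain.

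Of the 5 intermediate and light chains 4 fell. Dnaic2, an intermediate chain that anchors the outer arm, measured 37.0 and 29.2 CPM in knockout against 87.7, 89.9 and 86.3 CPM in wild-type testes (log2 -1.42 ± 0.07, adjusted p = 2.44e-11). Its partner Dnaic1 measured 82.8 and 83.9 CPM in knockout against 118, 119 and 114 CPM in wild-type testes (log2 -0.49 ± 0.04). Dnali1, the light intermediate chain of inner arms, measured 103.5 and 104 CPM in knockout against 123.5, 131 and 130.2 CPM in wild-type testes (log2 -0.31 ± 0.04), and Dnal4 had -0.41. The intermediate chain Dnaic2 showed a larger fold change than the sperm heavy chains of the same arm. Dnal1, an outer arm light chain, was at log2 0.07 ± 0.05 and did not pass. Among the assembly factors Dnaaf1 (-0.43) and Dnaaf3 (-0.35) fell, while Dnaaf2 and Dnaaf5 were at -0.06 and 0.01 and did not pass.

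Of the 9 radial spoke members 8 fell in Nkapl knockout testis (median log2 -0.47). Rsph6a measured 118 and 110.0 CPM in knockout against 154, 163 and 155 CPM in wild-type testes (log2 -0.47 ± 0.04, adjusted p = 7.53e-08). Rsph14 had -0.82, Cfap61 -0.78, Cfap206 -0.66 and Rsph1 -0.21, whereas Rsph4a, under 1.1 CPM in every library of this set, was at -0.60 ± 0.46 and did not pass. Rsph3a and Rsph3b, at -0.26 and -0.25, are near-identical copies and are uncertain one from the other. All 3 N-DRC members fell. Drc3 measured 49.0 and 54.9 CPM in knockout against 104, 103 and 104 CPM in wild-type testes (log2 -0.99 ± 0.05, adjusted p = 3.44e-11). Drc1, which scaffolds the complex, had -0.55 ± 0.05 and Drc7 had -0.37.

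All 5 tether and linker members fell. Cfap43 and Cfap44 tether an inner arm, and Cfap73 and Cfap100 form the linker named modifier of inner arms in Chlamydomonas. Cfap100 had 5 counts over both knockout libraries, at 0.0486 and 0.152 CPM, against 620 counts in the 3 wild-type libraries, at 10.5, 7.87 and 9.39 CPM. It was therefore close to absent in knockout testis and present in every wild-type testis, with a fitted log2 fold change of -6.37 (adjusted p = 3.17e-11) and a ratio of wild type over knockout of 86.7 (95% exact counting interval 37.0 to 268, which covers counting error only). Cfap73 fell by far less (-0.57 ± 0.10). Cfap43 measured 211 and 209 CPM in knockout against 344, 369 and 368 CPM in wild-type testes (log2 -0.78 ± 0.04, adjusted p = 3.14e-11), and Cfap44 had -0.46 ± 0.05.

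All 6 doublet inner members fell, with a median log2 of -0.79 and a range of -0.91 (Cfap45) to -0.20 (Cfap20, which seals the junction of each doublet). Of the 6 central apparatus members 4 fell, from Cfap221 (-0.77) to Cfap69 (-0.29), and Cfap46 and Cfap74 did not pass (-0.10 and -0.04). All 6 remaining members fell. Among them Cfap58, whose loss is known to deform the sperm tail, measured 17.7 and 18.5 CPM in knockout against 61.0, 53.4 and 58.1 CPM in wild-type testes (log2 -1.67 ± 0.07, adjusted p = 3.84e-12). Cfap77 had -1.76 and Cfap157 -1.42, and Cfap65, known from the same kind of sperm defect, had -0.17.

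**Figure D1:**
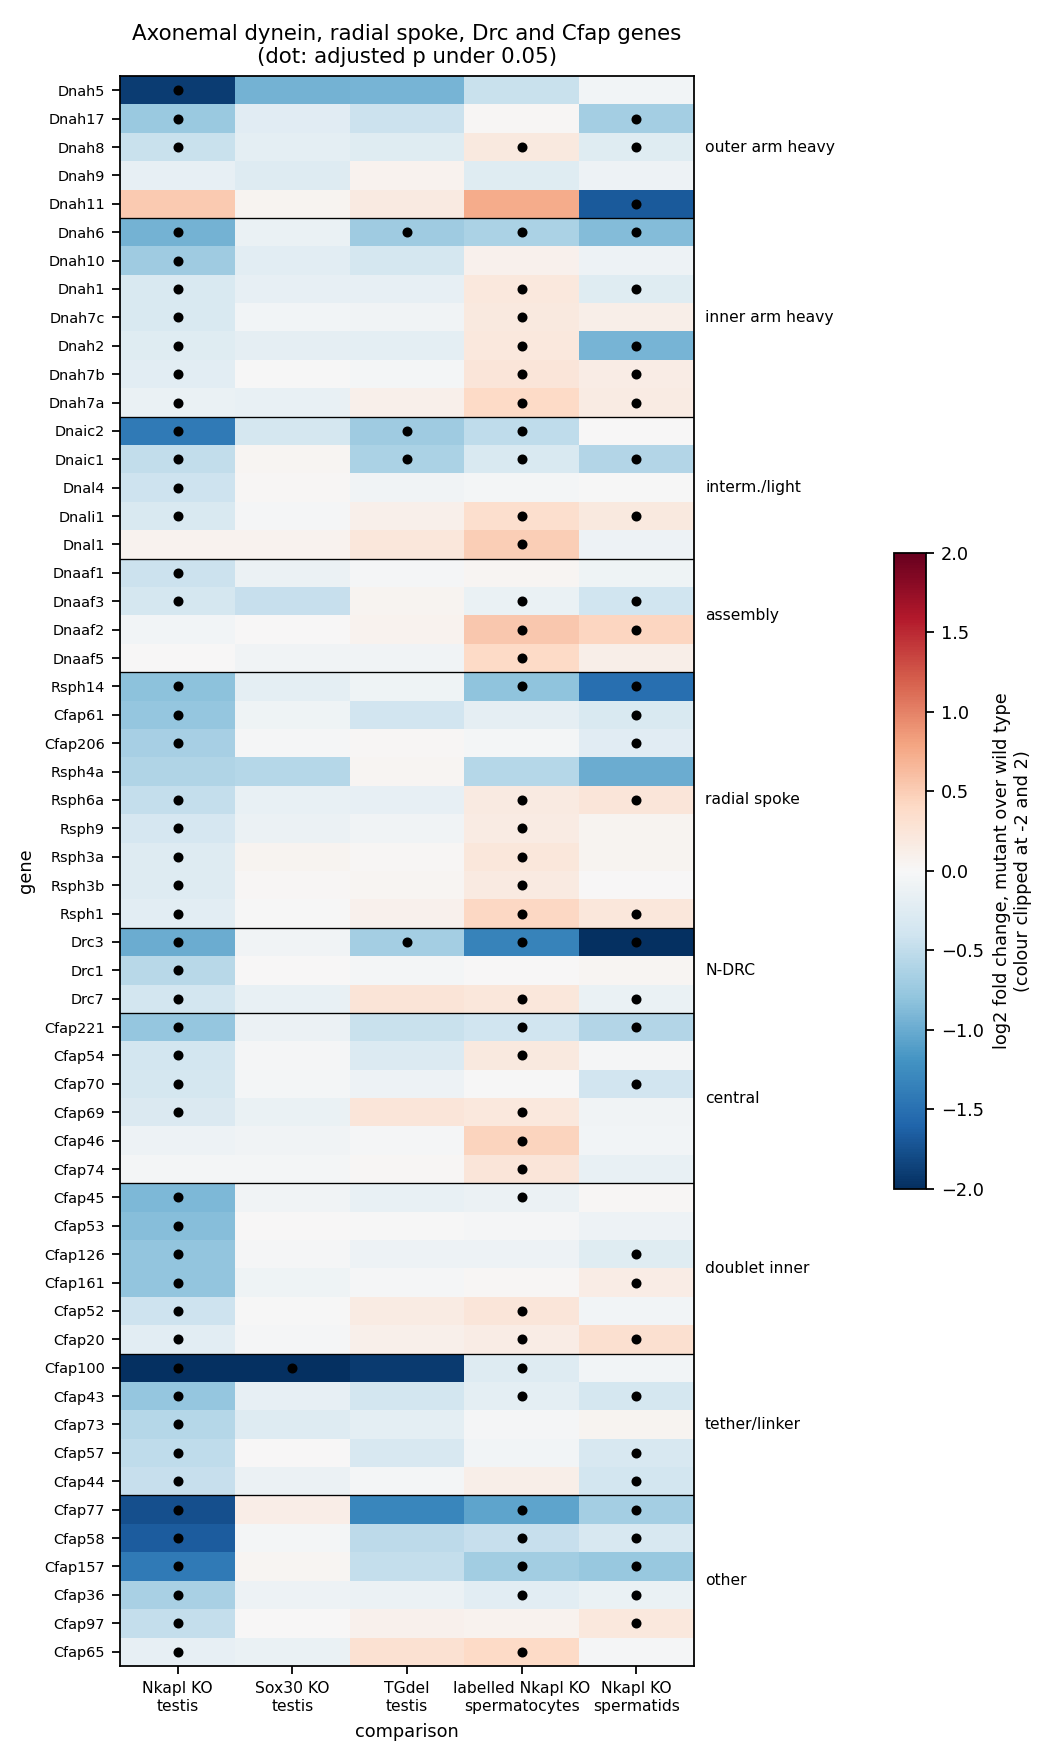
Log2 fold changes (colour, mutant over wild type, clipped at -2 and 2) of the 56 members (rows, grouped by role) in the 5 genotype comparisons (columns), with a dot where the adjusted p was under 0.05. The Nkapl knockout testis column holds 48 dots, all lower, the Sox30 column 1 and the TGdel column 4, while both sorted columns hold calls in either direction.

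The members differ in stage, which the wild-type sorted cells showed. Between wild-type spermatids and spermatocytes (as labelled), 35 members were higher in spermatids and 18 were lower (62.5% and 32.1%, against 41.1% and 36.4% of all 15805 genes tested). Cfap58 measured 469 and 491 CPM in spermatids against 201.5 and 181 CPM in spermatocytes (log2 1.33 ± 0.05, adjusted p = 8.88e-20). Cfap100 measured 151 and 146 CPM in spermatids against 52.4 and 53.9 CPM in spermatocytes (log2 1.48 ± 0.06, adjusted p = 1.45e-19). Both rose by more than 1 log2 unit with no overlap. Cfap157 (1.05), Cfap126 (1.12), Cfap45 (0.78) and Cfap77 (1.37) also rose, as did Cfap43 (0.48), Cfap44 (0.45), Dnali1 (0.34) and Drc1 (0.25). The scarce chains Dnah5 and Dnah9 rose by 1.52 and 1.48.

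Most inner arm and both sperm outer arm heavy chains ran the other way, with Dnah6 (0.17) and Dnah10 (0.53) as the exceptions. Dnah2 measured 221 and 217 CPM in spermatids against 428 and 356 CPM in spermatocytes (log2 -0.84 ± 0.06, adjusted p = 9.98e-14). Dnah8 measured 1241 and 1206 CPM in spermatids against 1861 and 1671 CPM in spermatocytes (log2 -0.53 ± 0.05, adjusted p = 8.96e-12). Of the 7 inner arm heavy chains 5 were lower in spermatids, and both sperm outer arm chains were (Dnah17 at -0.19 ± 0.05). Dnah7c (-0.87), Dnah7b (-0.76), Cfap46 (-0.68) and Rsph1 (-0.55) were also lower. All 5 doublet inner genes that were called, and all 5 tether and linker genes, were higher in spermatids. The calls of Rsph6a (0.11), Dnah11 (1.18) and Rsph4a (-1.07) were lost when single libraries were left out, for example at an adjusted p of 0.141, 0.0547 and 0.062 without wild-type spermatocyte library 1.

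The stage of a member was set beside its change in Nkapl knockout testis. Of the 35 members higher in wild-type spermatids 33 fell in Nkapl knockout testis (median log2 -0.64), and of the 18 lower in spermatids 12 did (median -0.23). The 2 exceptions among the 35 were the scarce chains Dnah9 and Dnah11. Over all genes tested in knockout testis 26.1% were called lower, and the share within each stage class over all genes was not computed. Round spermatid markers fell in 12 of 13 tested (median log2 -6.40). Whether these counts are particular to the members was therefore not tested. Across the 56 members the 2 log2 fold changes correlated at Pearson r = -0.48 and Spearman rho = -0.57, and at -0.52 and -0.55 without Cfap100. These share no library, but genes are not independent replicates and no p is given. The stages were set by the spermatocyte libraries labelled wild type. With those labelled knockout in their place, the log2 fold change of spermatids over spermatocytes was above 0 in 33 of the 35 members. It was below 0 in 18 of the 18, and the correlations were r = -0.56 and rho = -0.77. If the labels are right, this second measure also holds the knockout effect in spermatocytes. It is then no separate check of the stages or of the correlation.

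**Figure D2:**
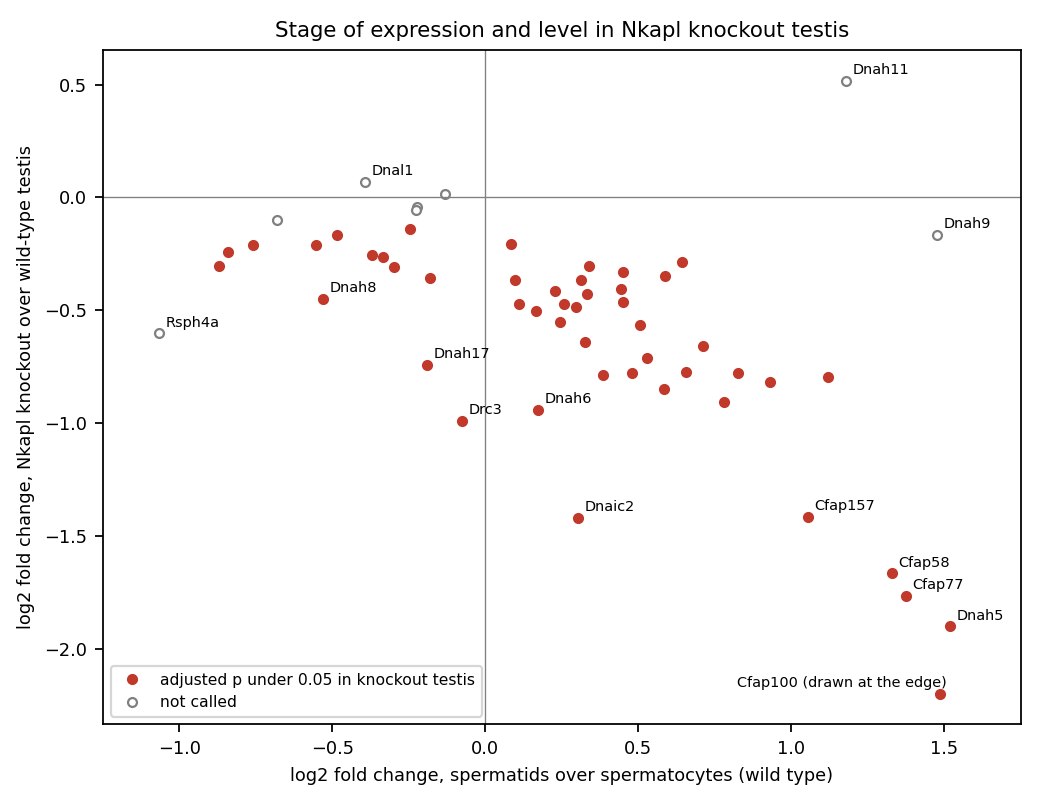
Each point is 1 member, with its log2 fold change between spermatids and spermatocytes of wild type on the x axis and between Nkapl knockout and wild-type testis on the y axis. Filled points were called in knockout testis, and Cfap100, at -6.37, is drawn at the lower edge. Points fall toward the lower right, with Dnah9 and Dnah11 as open points at the upper right.

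In sorted spermatids of Nkapl knockout mice the change was mixed. There 23 members fell and 9 rose (41.1% and 16.1%, against 31.0% and 29.0% of all 15805 genes tested), with a median log2 of -0.10 against 0.03 over all genes. Drc3 measured 33.1 and 32.6 CPM in knockout against 150.0 and 161 CPM in wild-type spermatids (log2 -2.24 ± 0.07, adjusted p = 8.6e-22), the largest fall of the 56. Rsph14 measured 16.0 and 14.5 CPM in knockout against 45.0 and 41.9 CPM in wild-type spermatids (log2 -1.51 ± 0.09, adjusted p = 4.24e-15). Dnah2 measured 115.6 and 114 CPM in knockout against 221 and 217 CPM in wild-type spermatids (log2 -0.93 ± 0.06, adjusted p = 1.31e-13). All 3 genes had tight replicates and no overlap between genotypes.

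Other dynein arms followed in part. Dnah6 measured 124 and 128 CPM in knockout against 229.8 and 232 CPM in wild-type spermatids (log2 -0.87 ± 0.07). Dnah17 measured 469 and 466 CPM in knockout against 756 and 745 CPM in wild-type spermatids (log2 -0.68 ± 0.05, adjusted p = 3.76e-13), and Dnah8 fell by less (-0.25 ± 0.05). Dnaic1 measured 153 and 165 CPM in knockout against 247 and 229 CPM in wild-type spermatids (log2 -0.58 ± 0.05). Its partner Dnaic2 measured 237 and 228.5 CPM in knockout against 228.0 and 235 CPM in wild-type spermatids and did not pass (log2 0.01 ± 0.05). Of the intermediate chains, which bind as a pair, only Dnaic1 was called in spermatids. Cfap157 (-0.75), Cfap77 (-0.68), Cfap221 (-0.58), Cfap44 (-0.37) and Cfap43 (-0.36) fell too, as did Dnah11 (-1.68, from 9 counts in knockout and 29 in wild type), whose call was lost without wild-type spermatid library 1 (adjusted p = 0.0962) and by DESeq2 (0.0708).

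Cfap100, nearly absent from Nkapl knockout testis, was present in sorted knockout spermatids. Round spermatid markers did the same, with sums of 4.90 to 6.18 CPM in knockout testes and 3969 to 4016 CPM in knockout spermatids. In wild type these sums were 155 to 231 CPM in testes and 10663 to 10879 CPM in spermatids. Testis and sorted levels of these genes therefore differ widely in both genotypes. Cfap100 measured 149 and 138 CPM in knockout against 151 and 146 CPM in wild-type spermatids (log2 -0.05 ± 0.06, adjusted p = 0.42), and the groups overlapped. In the spermatocyte libraries labelled knockout it measured 45.5 and 43.1 CPM against 52.4 and 53.9 CPM in those labelled wild type (log2 -0.26 ± 0.06, adjusted p = 0.000867). Some members rose in knockout spermatids, led by Dnaaf2 (0.43 ± 0.06), Cfap20 (0.31), Rsph6a (0.25), Rsph1 (0.23), Cfap97 (0.22) and Dnali1 (0.20). Dnah5 (-0.06), Dnah9 (-0.09), Rsph4a (-0.99 ± 0.66) and Drc1 (0.05) did not pass. Round spermatid markers were lower in knockout spermatids in 15 of 16 cases, with sums of 3969 to 4016 CPM against 10663 to 10879 CPM in wild type. Leydig cell markers, higher in 6 of 6 tested, summed to 23.4 to 25.1 CPM in knockout against 9.02 to 9.63 CPM in wild-type spermatids. Reads assigned to no gene took 24.5% of counts in knockout and 19.4% in wild-type spermatids. The part of these in the members' values was not tested.

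In spermatocytes, the libraries labelled knockout had 23 members higher and 14 lower than those labelled wild type (41.1% and 25%, against 33.6% and 25.7% of all genes tested), shares near the background. Drc3 measured 61.7 and 67.9 CPM in the libraries labelled knockout against 159 and 169 CPM in those labelled wild type (log2 -1.34 ± 0.06, adjusted p = 4.23e-17). Cfap157 (-0.70), Cfap77 (-1.06), Dnaic2 (-0.51), Dnah6 (-0.63), Cfap58 (-0.46) and Rsph14 (-0.81) were also lower by the labels. Rsph1 measured 2035 and 2070 CPM in the libraries labelled knockout against 1464 and 1601 CPM in those labelled wild type (log2 0.42 ± 0.05). Dnaaf2 (0.54), Cfap65 (0.40), Cfap46 (0.44), Dnal1 (0.50) and Dnali1 (0.34) were also higher.

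Of the genes given in every comparison, Dnah8 (0.19) and Rsph6a (0.18) were higher and Cfap43 (-0.19) was lower in the libraries labelled knockout. The call of Cfap43 was lost without wild-type library 1 (log2 -0.06) or knockout library 2 (-0.16), and that of Rsph6a without either knockout spermatid library (both 0.11) or with no filter on low counts (0.11). Dnah17 (0.03), Dnah5 (-0.45), Dnah9 (-0.25), Dnah11 (0.75), Rsph4a (-0.57), Drc1 (0.01) and Cfap44 (0.12) did not pass. Without wild-type library 1 Cfap44 (0.31) and Dnah17 (0.10) passed, and without wild-type library 2 Dnah5 did (-0.69). Round spermatid markers were lower in 15 of 16 cases, with sums of 1362 to 1372 CPM in the libraries labelled knockout against 3216 to 3357 CPM in those labelled wild type, and Leydig cell markers were higher in 5 of 6 tested, with sums of 64.1 to 69.0 CPM in the libraries labelled knockout against 44.3 to 45.1 CPM in those labelled wild type. Sertoli cell markers were lower in 7 of 12 cases, with sums of 183 to 185 CPM in the libraries labelled knockout against 261 to 276 CPM in those labelled wild type. Reads assigned to no gene took 23.3% of counts in the libraries labelled knockout and 19.4% in those labelled wild type; the part of these was not tested.

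With the spermatocyte labels as given, 11 members (19.6%, against 11.1% of all genes tested in these fits) were lower in Nkapl knockout testis and in both sorted cell types: Cfap157, Cfap221, Cfap36, Cfap43, Cfap58, Cfap77, Dnaaf3, Dnah6, Dnaic1, Drc3 and Rsph14. Another 7 (12.5%, against 18.8% of all genes) were higher in both sorted cell types (Cfap20, Dnaaf2, Dnah7a, Dnah7b, Dnali1, Rsph1 and Rsph6a), and 4 (7.14%, against 2.2%) were higher in spermatocytes and lower in spermatids (Dnah1, Dnah2, Dnah8 and Drc7). The difference between the sorted effects, spermatids minus spermatocytes, was called lower for 23 members and higher for 1 (41.1% and 1.79%, against 16.4% and 9.02% of all genes). With DESeq2-type size factors the members split into 19 lower and 7 higher, and all genes into 1902 lower and 1941 higher, in place of 2599 lower and 1426 higher. Dnah2 (-1.15 ± 0.08, adjusted p = 6.35e-11), Dnah17 (-0.71 ± 0.07), Drc3 (-0.90 ± 0.09) and Dnah8 (-0.44 ± 0.06) had the lower effect in spermatids, and Dnaic2 (0.52 ± 0.07) the higher. These signs and their order hold for the spermatocyte labels as given. With those labels exchanged, a reading added after the data were seen and not tested, the differences would be -3.58 for Drc3, -0.72 for Dnah2, -0.65 for Dnah17, -0.05 for Dnah8 and -0.50 for Dnaic2, whose sign turns.

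**Figure D3:**
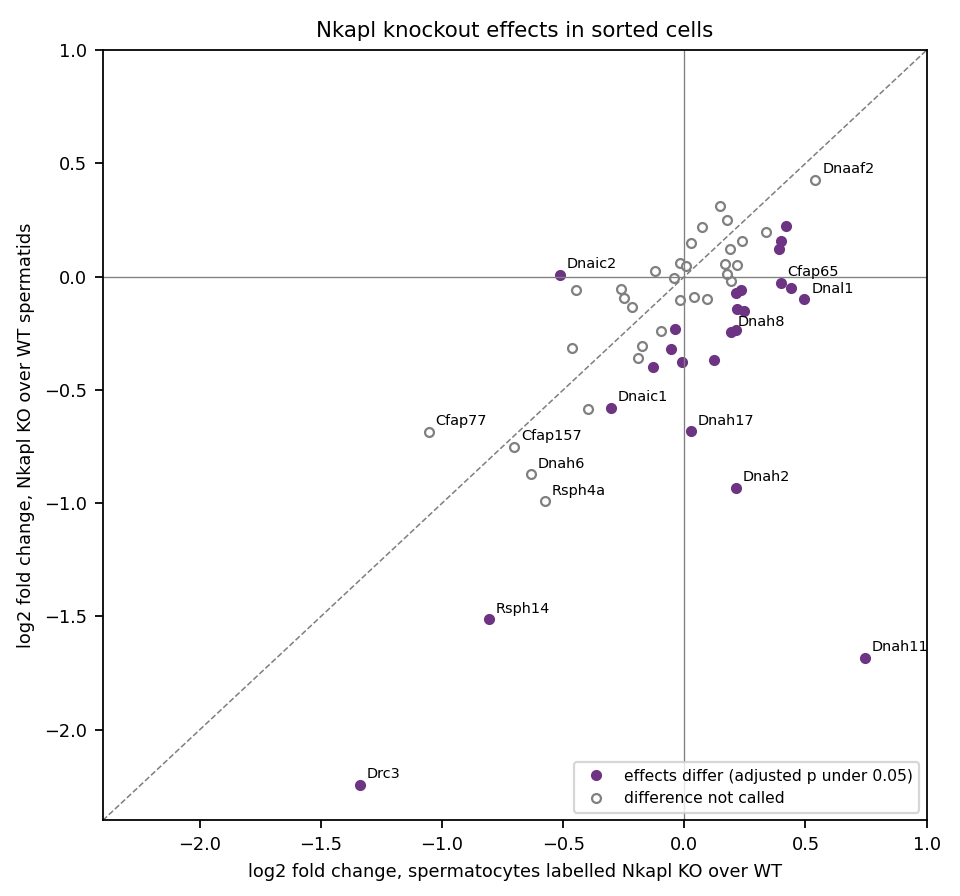
Log2 fold changes of the 56 members between knockout and wild type, in spermatocytes by their labels (x axis) and in spermatids (y axis). Filled points differ between the cell types at an adjusted p under 0.05. Most filled points lie below the dashed line of equal effects, with Drc3 lowest on the y axis and Dnaic2 above the line.

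TGdel testis had 4 members lower and 0 higher (7.14%, against 1.05% of all 16011 genes called lower and 0.2% called higher). An unadjusted p under 0.05 was found for 20 members, but the share of all genes at that level was not computed. Drc3 measured 89.1, 85.6 and 93.0 CPM in TGdel testes against 143 and 145 CPM in wild-type testes (log2 -0.69 ± 0.07, adjusted p = 0.00764). Dnah6 measured 99.2, 98.4 and 100.1 CPM in TGdel testes against 172 and 154 CPM in wild-type testes (log2 -0.71 ± 0.08, adjusted p = 0.00764). Dnaic1 measured 85.2, 86.8 and 95.6 CPM in TGdel against 139 and 137 CPM in wild-type testes (log2 -0.63 ± 0.08, adjusted p = 0.0142). Dnaic2 measured 57.6, 60.1 and 64.4 CPM in TGdel against 112 and 86.3 CPM in wild-type testes (log2 -0.71 ± 0.11, adjusted p = 0.0316). All TGdel libraries lay under both wild-type libraries in each of the 4 genes. The calls rest on single libraries: without TGdel library 2, 0 members and 0 of all 15885 genes tested were called. Without TGdel library 3, 3 members were lower (5.36%, against 0.912% of all genes), and without TGdel library 1, 5 were (8.93%, against 2.55%). Leaving out a wild-type library leaves 1 in that group, so only the members' median log2 is given. It was -0.03 without wild-type library 1 and -0.11 without wild-type library 2, against -0.07 with all libraries.

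Cfap100 measured 0.241, 0.961 and 2.36 CPM in TGdel testes against 5.63 and 3.36 CPM in wild-type testes and did not pass (log2 -1.91 ± 0.61, adjusted p = 0.181), though the groups did not overlap. Dnah17 (-0.42, adjusted p = 0.0585) and Cfap43 (-0.36, adjusted p = 0.0887) passed by DESeq2, and Dnah17 also without TGdel library 1 (adjusted p = 0.0495). Dnah5 (-0.93), Dnah8 (-0.24), Dnah9 (0.07), Dnah11 (0.18), Rsph4a (0.03), Rsph6a (-0.16), Dnali1 (0.10), Drc1 (-0.04) and Cfap44 (-0.04) did not pass. Round spermatid markers summed to 17.0 to 99.2 CPM in TGdel against 127 to 183 CPM in wild-type testes, with 0 of the 13 tested called and a median log2 of -1.55. Epididymal markers summed to 7.48 to 42.5 CPM in TGdel and 9.80 to 76.4 CPM in wild-type testes, with 0 of 10 tested called. The part of either list was not tested.

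**Figure D4:**
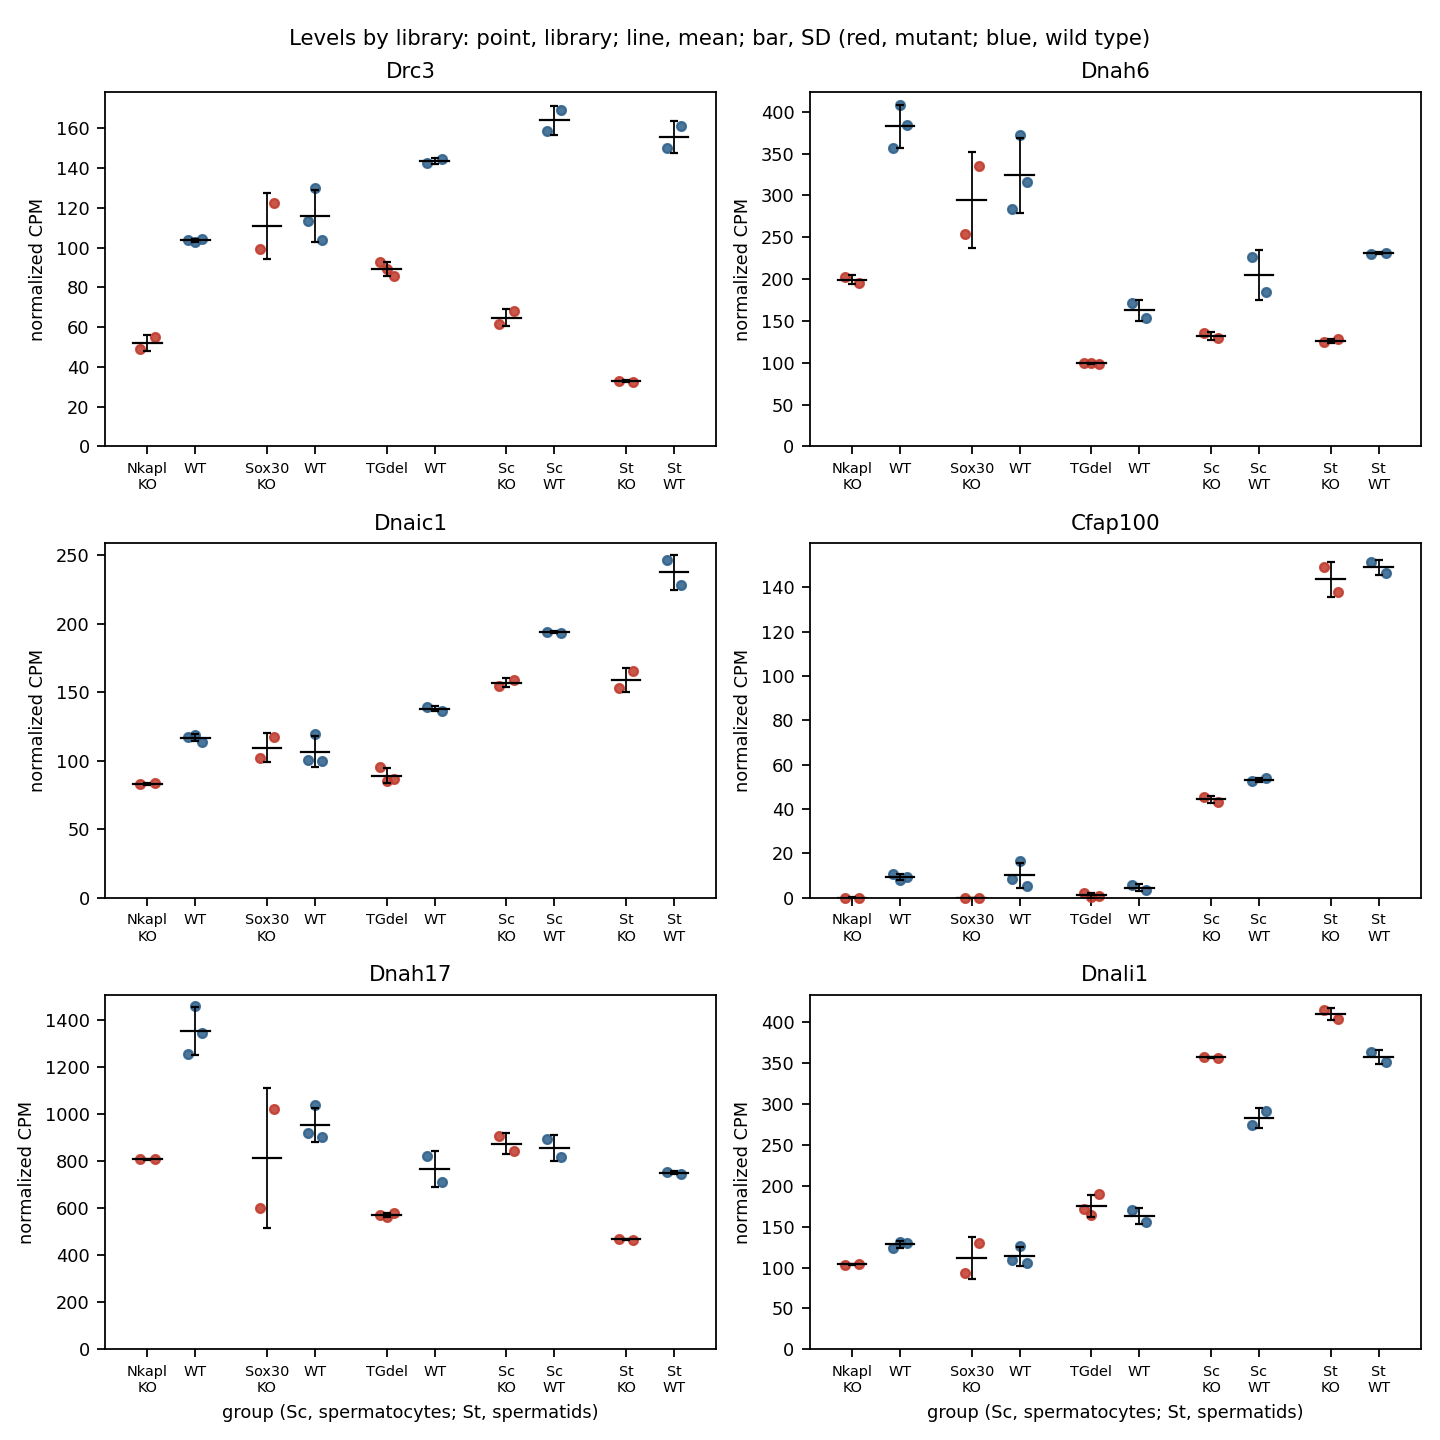
Normalized CPM of 6 members in every library, with points for libraries, lines for means and bars for the SD; each mutant group (red) stands left of its wild type (blue), and Sc and St mark sorted spermatocytes and spermatids. Drc3, Dnah6 and Dnaic1 are lower in every mutant group but Sox30 knockout testis, where libraries overlap, and Cfap100 is near 0 in Nkapl and Sox30 knockout testes yet overlaps between genotypes in spermatids.

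In Sox30 knockout testis 1 member fell and 0 rose (1.79%, against 1.92% of all 17816 genes called lower and 0.505% called higher). The share called lower is that of the background. An unadjusted p under 0.05 was found for 3 members, but the share of all genes at that level was not computed. Cfap100 had 6 counts in the 2 knockout libraries, at 0.134 and 0.0279 CPM, against 1085 counts in the 3 wild-type libraries, at 8.54, 16.4 and 5.36 CPM. The fitted log2 fold change was -6.89 ± 0.77 (adjusted p = 0.00665), and the ratio of wild type over knockout was 122 (95% exact counting interval 55.9 to 334). The call was lost without knockout library 1 (adjusted p = 0.0846) or knockout library 2 (0.0643), each time at a log2 change beyond -6.

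The Sox30 knockout libraries differed from each other over the members. Dnah17 measured 603 and 1023 CPM in knockout against 920.5, 1037 and 902 CPM in wild-type testes (log2 -0.23 ± 0.21). Drc3 measured 99.2 and 122 CPM in knockout against 113, 129.8 and 104 CPM in wild-type testes (log2 -0.06 ± 0.13). The lower value came from knockout library 1 in both genes, and groups overlapped. The members' median log2 was -0.07, moving to -0.35 without knockout library 2, to 0.10 without knockout library 1 and to 0.01 without wild-type library 2. Dnah5 (-0.95 ± 0.27, adjusted p = 0.194), Dnah8 (-0.19), Dnah9 (-0.25), Dnah11 (0.05), Rsph4a (-0.57), Rsph6a (-0.16), Dnali1 (-0.03), Drc1 (0.00), Cfap43 (-0.16) and Cfap44 (-0.12) did not pass. Round spermatid markers were lower in 8 of 16 cases (median log2 -5.10), with sums of 13.9 to 32.8 CPM in knockout against 133 to 457 CPM in wild-type testes. Epididymal markers were higher in 7 of 10 tested, with sums of 72.1 to 123 CPM in knockout against 7.92 to 8.88 CPM in wild-type testes. The part of either list was not tested.

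The Nkapl and Sox30 knockout effects in testis were set against each other in a joint fit. Only Drc3 was called, with the Nkapl effect lower by 0.91 ± 0.16 on the log2 scale (adjusted p = 0.0163), which is 1.79% of members against 2.64% of all 17867 genes called lower and 0.168% called higher. The members' median difference was -0.30, against 0.01 over all genes tested. Of the 56 members 48 were below 0, but the share of all genes below 0 was not computed. The call of Drc3 was lost without any single Nkapl library (adjusted p = 0.052 to 0.105), without wild-type library 1 of the Sox30 set (0.0583) and without the 2 libraries of these sets with a conflicting record (0.0726). Without Sox30 knockout library 1, 27 members were called lower (48.2%, against 10.1% of all genes tested), and without wild-type library 2 of that set 10 were (17.9%, against 5.68%). Cfap100 did not differ beyond its error (0.51, adjusted p = 0.90).

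A list of other axoneme genes outside the symbol rule had 48 of its 51 genes in the files. Of these 43 fell and 0 rose in Nkapl knockout testis (median log2 -0.51), against 26.1% and 17.8% of all genes tested. In knockout spermatids 23 fell and 11 rose, against 31.0% and 29.0% of all genes. In spermatocytes 15 were lower and 15 higher in the libraries labelled knockout, against 25.7% and 33.6% of all genes. In TGdel testis 2 were lower and in Sox30 knockout testis 1 was, against 1.05% and 1.92% of all genes. The spermatocyte and Sox30 counts are near these background shares. Ccdc63, an outer arm docking gene, was the 1 called in Sox30 knockout testis, at 2.75 ± 0.30 CPM in knockout against 28.5 ± 11.6 CPM in wild-type testes (SD, log2 -3.37 ± 0.37). It averaged 3.02 CPM in Nkapl knockout against 31.0 CPM in wild-type testes (log2 -3.35 ± 0.14). Of the 11 listed transcription factors of motile cilia, 9 were tested in Nkapl knockout testis, and 6 fell, against 26.1% of all genes tested. Foxj1, the master regulator of motile cilia, averaged 2.35 CPM in knockout against 36.6 CPM in wild-type testes (log2 -3.96 ± 0.14), but 240.3 CPM in knockout against 255 CPM in wild-type spermatids (-0.09 ± 0.05, adjusted p = 0.151). In Sox30 testes Foxj1 averaged 29.2 CPM in knockout against 34.6 CPM in wild type and was not called. Markers of multiciliated epithelium, another source of axoneme RNA, were absent in part: Mcidas, Sntn, Cdhr3, Tmem212, Fam216b and Aqp4 (6 of 11) were under 1 CPM in every library. All 11 summed to 64.6 to 68.0 CPM in Nkapl knockout against 169 to 207 CPM in wild-type testes, and to 1113 to 1118 CPM in knockout against 1437 to 1465 CPM in wild-type spermatids. The sums came mostly from Mlf1, Deup1 and Foxj1, at 93.4, 68.9 and 42.1 CPM of the 207 in wild-type testis library 1. These genes stood at 642, 533 and 254 CPM in wild-type spermatid library 1, so the sum does not measure this epithelium alone.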

How the data were processed

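RNA libraries of mouse testis and sorted germ cells were analysed from the count per gene that the authors deposited, in unscaled whole numbers. The tools named are HISAT2 2.1.0, HTSeq and DESeq2, on mm10, per the submitters' processing notes. Annotation and strand setting: not given in the sources used here. Stranded total RNA libraries were made from each group, with the replicates described as biological, per the labels. Rows of reads assigned to no gene (19.4% to 24.5% in sorted groups) were left out.

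Genes were kept by filterByExpr, scaled by TMM and tested two-sided by quasi-likelihood in edgeR 4.0.16 (R 4.3.3), with Benjamini-Hochberg adjustment over all genes. Each testis set was fitted alone, the 8 sorted libraries together, and the Nkapl and Sox30 sets jointly for their difference. The SE was taken as the size of a log2 fold change over the root of its F statistic. The exact counting intervals are 95% and cover counting error only. In counts simulated on the Nkapl knockout testis comparison (16724 genes run), 91% of genes changed by a log2 of 1 and 99% of those changed by 2 were recovered. For Sox30 knockout testis (17620 genes) these shares were 74% and 95%, for TGdel testis (15799 genes) 82% and 94%, and for spermatocytes (15418 genes) 90% and 100%.

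The members, lists and alternatives were chosen with earlier results of these data known. Named in every comparison were Dnah5, Dnah8, Dnah9, Dnah11, Dnah17, Rsph4a, Rsph6a, Dnali1, Drc1, Cfap43 and Cfap44, then up to 6 members per direction and 5 per difference with the smallest p among those called; others are given as the extremes or examples of their role, chosen after their values were seen. Alternatives were DESeq2 1.42.0, its size factors in edgeR, no filter, other library groupings, a replicate block and leaving out each library.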

Additional observations from a re-analysis of the deposited data

Results flagged for a closer look

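The Nkapl knockout effect differed between sorted spermatids and spermatocytes for 24 members (41.1% lower and 1.79% higher, against 16.4% and 9.02% of all genes tested), by a contrast of both effects in a single fit, although Nkapl itself runs against the genotype labels of the spermatocytes. The difference, spermatids minus spermatocytes on the log2 scale, was -1.15 for Dnah2, -0.71 for Dnah17, -0.90 for Drc3, -0.44 for Dnah8 and 0.52 for Dnaic2. With the spermatocyte labels exchanged the values would be -0.72, -0.65, -3.58, -0.05 and -0.50, in the same order of genes, so the sign for Dnaic2 rests on labels in doubt. The causes of these differences were not tested.

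Between the Nkapl and Sox30 knockout testes the effect differed for 1 member (1.79%, against 2.64% of all genes called lower, so no more than the background), Drc3, with a difference of -0.91 (Nkapl minus Sox30), a call that several left-out libraries remove.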

How the results depend on the processing

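In Nkapl knockout testis 48 members were called under every alternative run but 2 kinds: 47 to 49 with 1 library left out, and 0 when the file record set the groups (wild type 3 then counts as a knockout). Grouping by record also gave 0 in Sox30 knockout and TGdel testis and for the difference between the Nkapl and Sox30 effects. In each of these fits, Nkapl knockout testis included, that grouping called 0 of all genes tested, so the loss is not particular to the members. In Sox30 knockout testis the count was 5 with a replicate block (8.93%, all lower, against 7.69% of all genes) and 0 to 1 with 1 library left out. In TGdel testis it was 0 with a replicate block, which called 0 of all genes too. By DESeq2 it was 9 (14.3% lower and 1.79% higher, against 2.28% and 1.32% of all genes). With 1 TGdel library left out it was 0 to 5 (0% to 8.93% lower, against 0% to 2.55% of all genes). The Nkapl minus Sox30 difference gave 15 with a replicate block (26.8% lower, against 5.04% of all genes), 6 by DESeq2 (10.7%, against 4.47%), 0 without the libraries of conflicting record and 0 to 27 with 1 library left out. With 1 sorted library left out, 1 group holds a single library, so only the median log2 of the members is given. It was -0.04 to 0.08 in spermatocytes (-0.01 to 0.07 over all genes). In knockout spermatids it was -0.13 to -0.10 (-0.002 to 0.03 over all genes). Between wild-type cell types it was 0.21 to 0.30 (-0.01 to 0.06 over all genes). For the sorted difference it was -0.22 to -0.11 (-0.04 to 0.03 over all genes). In spermatocytes 14 members were called higher with no filter on low counts, in place of 23. That is 25% against 19.7% of all genes, in place of 41.1% against 33.6%. Over all genes, those called lower in Sox30 knockout testis numbered 7 without knockout library 1 and 8 without knockout library 2, against 342, and in TGdel testis 0 without TGdel library 2 and 1 without wild-type library 1, against 168. Over 1545 log2 values of 133 named results, 1476 kept their side of the threshold, 54 lost a call and 15 gained one. Values called in the main fit or in the alternative changed sign in 0 cases. A change of sign between uncalled values was not counted, and grouping by file record was left out of this tally. With the spermatocyte labels exchanged, an untested reading added after the data were seen, the sorted difference of Dnaic2 turned to -0.50. Replicate numbers share no stated animal or day. The 2 numbered pairs of each testis set had correlated deviations of -0.06 to 0.36, highest for pair 2 of the Sox30 set. In the Sox30 set the replicate block moved the members' median log2 from -0.07 to -0.16. Whether numbered libraries share more than a number was not tested. A group left with 1 library is assumed to vary like the others. Depth limits Cfap100, Dnah5, Dnah11 and Rsph4a, which had few counts. The causes of these changes were not tested.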
